A study of Mus musculus with 3 samples.

Results

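The 10 genes described here, of 55536 annotated mouse genes in the tables, encode proteins that bind cytokine mRNAs and set how long they last. They were chosen by gene symbol: Zfp36, Zfp36l1, Zfp36l2, Zc3h12a, Zc3h12c, Rc3h1, Rc3h2, Elavl1, Khsrp and Hnrnpd. All 10 were found, and all 10 were detected, meaning a mean expected count of at least 10 over the libraries. Levels were read in RNA of the chromatin fraction, after depletion of ribosomal RNA, from macrophages grown from the bone marrow of C57BL/6J mice and treated with lipid A at 100 ng/ml for 30 min. Lipid A is the membrane anchor of bacterial lipopolysaccharide, which the receptor TLR4 senses. There was 1 group of 3 libraries, made from 1 µg, 250 ng and 500 ng of RNA for libraries 1, 2 and 3, and age and sex were not collected. The labels give the 3 biological replicates 1 donor record, so spreads and p-values describe these libraries and may be technical. No unstimulated library was analysed here, so every value is a level after lipid A and not an induction.

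Most cytokine mRNAs carry elements in their 3′ untranslated region (3′ UTR) that shorten their life. Proteins of the Zfp36 family bind AU-rich elements through CCCH zinc fingers and recruit deadenylases, which remove the poly(A) tail. Proteins of the Zc3h12 (Regnase) family cut stem-loops as endonucleases, and those of the Rc3h (Roquin) family bind stem-loops and also recruit deadenylases. Elavl1 (HuR), Khsrp (KSRP) and Hnrnpd (AUF1) bind AU-rich or U-rich stretches too, and Elavl1 is best known for stabilising its targets. Macrophages without Zfp36 protein, called tristetraprolin, make too much tumour necrosis factor, and tristetraprolin also binds its own mRNA.

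The AU-rich heptamer TATTTAT, the core of the tristetraprolin site, occurs in the longest annotated 3′ UTR of 7 of the 10 genes. Of 10890 detected protein-coding genes with an annotated 3′ UTR, 30.8% hold it. Among the 7023 genes whose 3′ UTR falls within the members' own length range, 774 to 7181 nt, 40.3% do. Length was not matched further. The median 3′ UTR of these 7023 genes was 1899 nt, against 4062 to 7181 nt for Zc3h12c, Elavl1, Rc3h2, Hnrnpd and Rc3h1. The other members had 774 to 1835 nt. Zfp36, Zfp36l1, Zfp36l2 and Rc3h2 have 3 heptamers each, Zc3h12c and Rc3h1 have 2 each, and Elavl1 has 8. Zc3h12a, Khsrp and Hnrnpd have 0 in 3′ UTRs of 856, 1642 and 5429 nt. The longer nonamer TTATTTATT, which contains the heptamer, occurs in 6 of the 10 genes and in 8.47% of detected genes, or 10.9% within the length range. The pentamer ATTTA, which lies inside both, occurs in all 10 genes and in 71.1% of detected genes, or 87.2% within the length range. Only the sense strand of the transcript was searched, and overlapping matches were counted. A match is a stretch of letters, and binding was not measured.

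The sites below are shown because the heptamer is the core of the element that proteins of the Zfp36 family read in cytokine mRNAs, here in genes of the regulators. One heptamer per gene is printed in capitals with 11 bases on each side, written 5′ to 3′ on the strand of the transcript. Where a gene has a nonamer, its first nonamer was taken, and otherwise its first heptamer. Tnf, the tumour necrosis factor gene and the textbook target, is given for comparison. Sequences are from the GENCODE M21 transcripts of build mm10, and all but Rc3h1 lie on the minus strand.
Zfp36: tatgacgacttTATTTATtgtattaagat
Zfp36l1: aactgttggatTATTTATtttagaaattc
Zfp36l2: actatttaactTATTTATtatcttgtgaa
Zc3h12c: gctataatcatTATTTATaggaacaaaga
Rc3h1: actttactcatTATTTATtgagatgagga
Rc3h2: caaagacatttTATTTATtttactctgta
Elavl1: gtcatgaaaatTATTTATttatttattta
Tnf: tttgcacttatTATTTATtatttatttat

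In Elavl1 and Tnf the flanking bases repeat the element, whereas in the other 6 genes no second heptamer falls within the window. The 8 heptamers of Elavl1 began between bases 3795 and 3841 after the stop codon, near the end of a 3′ UTR of 4218 nt. Tnf also has 8, of which 5 lie within nonamers, in a 3′ UTR of 764 nt. The 3 heptamers of Zfp36 began at bases 575, 590 and 615 of a 3′ UTR of 774 nt. The printed windows lie at chr7:28376951-28376979 for Zfp36, chr12:80108167-80108195 for Zfp36l1, chr17:84184914-84184942 for Zfp36l2, chr9:52114862-52114890 for Zc3h12c, chr1:160970043-160970071 for Rc3h1, chr2:37373287-37373315 for Rc3h2, chr8:4285788-4285816 for Elavl1 and chr17:35199689-35199717 for Tnf. All are exonic and in the 3′ UTR.

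**Figure D1:**
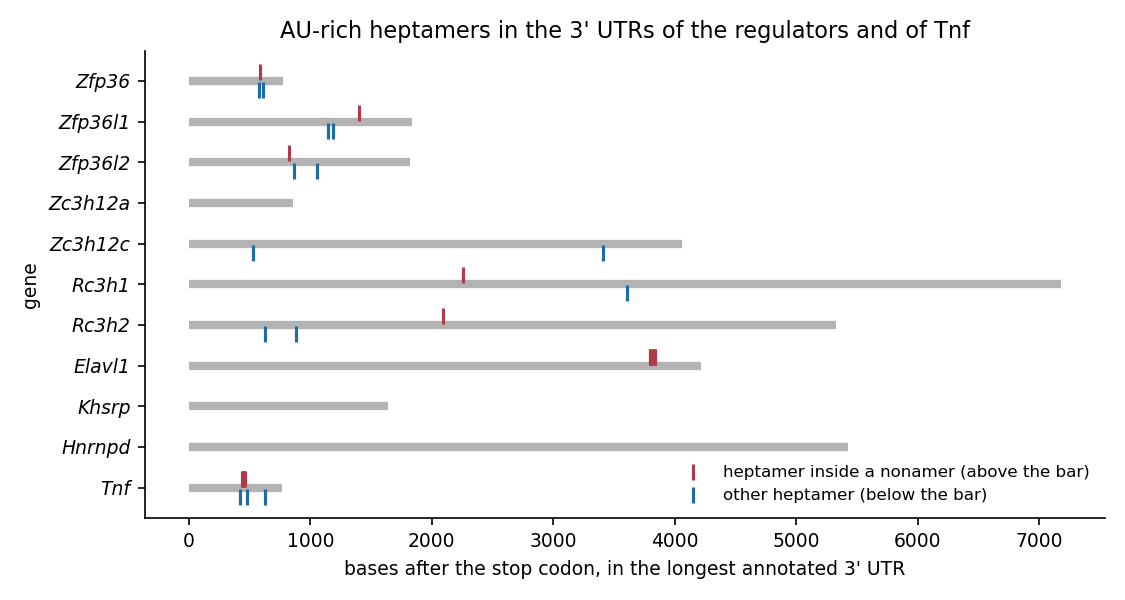
Positions of TATTTAT in the longest annotated 3′ UTR of each gene and of Tnf, in bases after the stop codon; each bar is a 3′ UTR and each tick 1 heptamer, above the bar where it lies inside a nonamer. Elavl1 carries a cluster of 8 near its end, Zfp36 has 3 close together, and Zc3h12a, Khsrp and Hnrnpd have 0.

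Levels are given in TPM, a measure scaled to a fixed library total, which corrects for transcript length and can be compared between genes. Zfp36 (ENSMUSG00000044786.6, chromosome 7, 28376784 to 28380253, minus strand) was the highest of the 10 in each library. It had 109.7, 91.6 and 265.8 TPM in libraries 1 to 3, a mean of 155.7 ± 95.8 (SD, n = 3). Without library 3 its mean was 100.6 TPM. It ranked 172 among 10983 detected protein-coding genes, above 98.4% of them. Its paralogs were much lower: Zfp36l1 (ENSMUSG00000021127.7, chromosome 12, 80107754 to 80113013) had 5.67, 6.57 and 27.72 TPM, and without library 3 its mean of 13.3 ± 12.5 TPM dropped to 6.12. Zfp36l2 (ENSMUSG00000045817.8, chromosome 17, 84183931 to 84187947) had 2.59, 2.54 and 5.60 TPM. Zfp36l2 was the lowest of the 10 in each library and the only one whose mean, 3.58 ± 1.75 TPM, lay below the median detected protein-coding gene at 4.98 TPM. Its last place rested on which transcripts are summed. Over protein-coding transcripts alone, an alternative chosen after seeing the data, Elavl1 had the lowest mean, at 3.29 ± 2.38 TPM. On that sum Zfp36l2 was above Elavl1 in 2 of 3 libraries. The TPM of Zfp36 was 19.3, 13.9 and 9.59 times that of Zfp36l1 in libraries 1 to 3, and 42.4, 36.0 and 47.5 times that of Zfp36l2. In log2 the first difference was 3.76 ± 0.50 and the second 5.34 ± 0.21 (SD, n = 3), so both exceeded the spread between libraries.

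Of the endonuclease genes, Zc3h12a (Regnase-1, ENSMUSG00000042677.7, chromosome 4, 125118423 to 125127840) was the second highest of the 10 in each library, at 27.83, 36.32 and 52.51 TPM (mean 38.9 ± 12.5). Its protein cleaves Il6 and other inflammatory mRNAs. Zc3h12c (Regnase-3, ENSMUSG00000035164.8, chromosome 9, 52111344 to 52168572) had 23.25, 6.51 and 18.55 TPM (mean 16.1 ± 8.63) and was the only one of the 10 with its highest TPM outside library 3. The log2 ratio of Zc3h12a over Zc3h12c was positive in 3 of 3 libraries but uneven, at 1.41 ± 1.10. Over protein-coding transcripts alone, an alternative chosen after seeing the data, Zc3h12a had 15.27, 19.02 and 34.01 TPM. On that sum it lay below Zc3h12c, at 23.25 TPM, in library 1 and above it in libraries 2 and 3.

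The 2 Roquin genes were close to each other in every library. Rc3h2 (ENSMUSG00000075376.10, chromosome 2, 37370069 to 37422903) had 14.49, 17.91 and 32.20 TPM, and Rc3h1 (ENSMUSG00000040423.10, chromosome 1, 160906418 to 160974978, plus strand) had 10.42, 12.62 and 21.63 TPM. The TPM of Rc3h2 was 1.39, 1.42 and 1.49 times that of Rc3h1 in libraries 1 to 3. The log2 ratio of 0.52 ± 0.05 was the steadiest of the 5 ratios computed within the families. It was 0.84 ± 0.07 in a second quantification of the same reads, which the authors also deposited. The order turned over protein-coding transcripts alone, an alternative chosen after seeing the data. There Rc3h1 had 12.37 ± 3.48 TPM and Rc3h2 10.01 ± 3.64, and Rc3h1 was the higher in 3 of 3 libraries.

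Of the remaining 3 genes, Hnrnpd (ENSMUSG00000000568.15, chromosome 5, 99955935 to 99978938) was the highest, at 18.16, 19.73 and 35.73 TPM (mean 24.5 ± 9.72). Elavl1 (ENSMUSG00000040028.10, chromosome 8, 4285382 to 4325413) had 6.56, 5.24 and 13.11 TPM, a mean of 8.30 ± 4.21. Khsrp (ENSMUSG00000007670.10, chromosome 17, 57021051 to 57031522) had 5.85, 8.90 and 9.16 TPM, a mean of 7.97 ± 1.84. Elavl1 and Khsrp changed places between libraries and could not be ordered. Apart from Rc3h1, all of the genes lie on the minus strand.

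**Figure D2:**
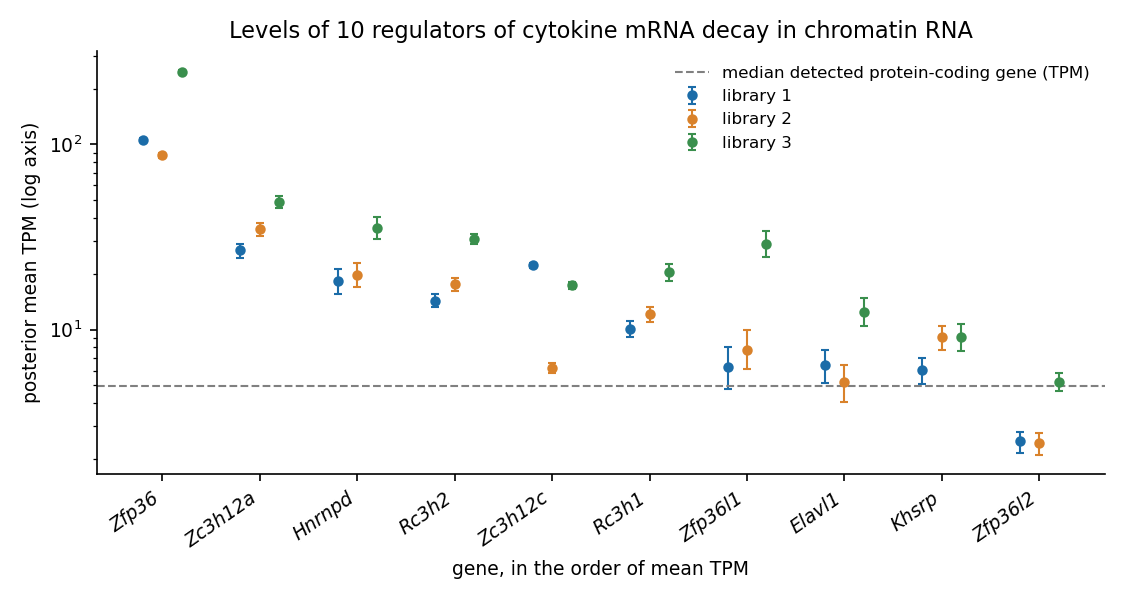
Posterior mean TPM of each gene in libraries 1 to 3 on a log axis, with the authors' deposited lower and upper bounds as bars; the dashed line is the median mean TPM of detected protein-coding genes, 4.98. Zfp36 is highest and Zfp36l2 lowest in each library, and library 3 is highest for most genes.

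Sorted by mean TPM, the order was Zfp36, Zc3h12a, Hnrnpd, Rc3h2, Zc3h12c, Rc3h1, Zfp36l1, Elavl1, Khsrp and Zfp36l2. Of the 9 pairs of neighbours, 4 kept 1 order in 3 of 3 libraries. Zfp36 exceeded Zc3h12a by 1.88 ± 0.51 in log2(TPM + 0.1), Zc3h12a exceeded Hnrnpd by 0.68 ± 0.17, Hnrnpd exceeded Rc3h2 by 0.20 ± 0.10 and Khsrp exceeded Zfp36l2 by 1.20 ± 0.54. The other 5 pairs, from Rc3h2 down to Khsrp, differed by less than their spread. With 3 libraries an exact sign-flip test cannot give a p below 0.25, so no pair was tested. In the second quantification Zfp36 exceeded Zc3h12a by 0.86 ± 0.47 in log2(TPM + 0.1), with 70.3 against 55.5 TPM in library 2. Most of the abundance of Zfp36, 88.5%, lay in a single-exon model that contains its intron, described below. The place of Hnrnpd rested on which transcripts are summed: over protein-coding transcripts alone, an alternative chosen after seeing the data, Rc3h2 had 10.01 ± 3.64 TPM and Hnrnpd 7.15 ± 4.25, and Rc3h2 was the higher in 3 of 3 libraries.

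The 7 genes of the Zfp36, Zc3h12 and Rc3h families had median levels of 14.5, 12.6 and 27.7 TPM in libraries 1 to 3, against 6.56, 8.90 and 13.1 TPM for Elavl1, Khsrp and Hnrnpd. The difference of the medians in log2(TPM + 0.1) was 1.13, 0.50 and 1.07, a mean of 0.90 ± 0.35, so it was positive in 3 of 3 libraries. It was 1.32 ± 0.54 over protein-coding transcripts alone. That alternative does not treat the genes alike. It removed part of Zc3h12a, Rc3h1, Rc3h2, Elavl1, Khsrp and Hnrnpd. Nothing was removed of Zfp36, Zfp36l1, Zfp36l2 or Zc3h12c, whose models are all annotated as protein-coding. Of 6 family members outside the 10, 2 were detected. Zc3h12d had 5.75 ± 2.86 TPM, above the mean of Zfp36l2, and Zc3h12b 0.32 ± 0.19 TPM. Elavl3 was not detected at 0.013 TPM, and Zfp36l3, Elavl2 and Elavl4, which are known from placenta (Zfp36l3) and neurons (Elavl2 and Elavl4), were listed at 0 in each library.

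TPM could not be compared between libraries directly. Genes under 300 nt took 72.9%, 66.3% and 56.7% of all TPM in libraries 1 to 3, and the median detected gene deviated by −0.37, −0.14 and 0.52 in log2 TPM from its own mean. Of the 10 genes, 9 had their highest TPM in library 3, where the median gene was also highest. The deposited bounds, which enclose the posterior mean TPM, lay apart in all 3 pairs of libraries for Zfp36, Zc3h12a, Zc3h12c and Rc3h2. For the other 6 they lay apart in 2 of 3 pairs. They need not enclose the TPM itself: that of Zfp36 lay above its upper bounds of 107.9, 89.6 and 252.1 in libraries 1 to 3. The bounds cover the uncertainty of 1 library's estimate and not the shift between libraries. Differences between libraries are therefore given in log2 CPM, counts scaled to library size by TMM with a prior count of 0.5, which does not correct for length.

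On that scale Zc3h12c and Zfp36l1 varied most. Zc3h12c had 8.01, 5.97 and 6.76 log2 CPM in libraries 1 to 3, a range of 2.04, or 4.11-fold, which exceeded the range of 99.3% of the 13309 genes tested. Its expected counts were 3960, 1020 and 1937, so the low value in library 2 still rested on 1020 counts. Zfp36l1 had 4.51, 4.77 and 6.06 log2 CPM, a range of 1.55, or 2.92-fold, which exceeded that of 97.4% of genes, and it was high in library 3 alone. A range over 1, a threshold chosen after seeing the data, was found in 2 of the 10 genes and in 13.6% of all genes tested. Without library 1 only 1 of the 10 genes, Zfp36l1, had such a range, and without library 3 only 1, Zc3h12c.

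The other 8 genes were steadier. Zfp36 had 8.77, 8.28 and 9.09 log2 CPM, a range of 0.80, lowest in library 2 and highest in library 3. The ranges were 0.58 for Elavl1, 0.51 for Khsrp, 0.40 for Zfp36l2, 0.31 for Rc3h2, 0.26 for Rc3h1, 0.17 for Hnrnpd and 0.12 for Zc3h12a. The median range over all genes tested was 0.51, and 5 of the 10 genes lay below it. Zc3h12a had 6.28, 6.38 and 6.40 log2 CPM, and 3.98% of genes tested had a smaller range. On this scale 8 genes were highest in library 3, Zc3h12c in library 1 and Khsrp in library 2.

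A test across all genes asked which of them varied between the libraries more than genes of like abundance, by an intercept-only quasi-likelihood fit in edgeR with Benjamini-Hochberg adjustment. None of the 10 genes passed, and neither did any of the 13309 genes tested (0 called, 0%). At an unadjusted p under 0.05, 655 genes were counted (4.92%), among them 2 of the 10. For Zc3h12c the edgeR p was 0.0014 and the adjusted p 0.50. For Zfp36l1 the edgeR p was 0.0037 and the adjusted p 0.62. DESeq2 marked 54 genes (0.406%) as dispersion outliers above the trend, and Zc3h12c was 1 of them. Without the filter on low counts edgeR called 117 of 23976 genes, again with Zc3h12c as the only one of the 10. The amount of starting RNA differed in every library, so it cannot be told apart from other differences between them. In bulk RNA, fewer cells of a type and less RNA per cell cannot be told apart either.

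**Figure D3:**
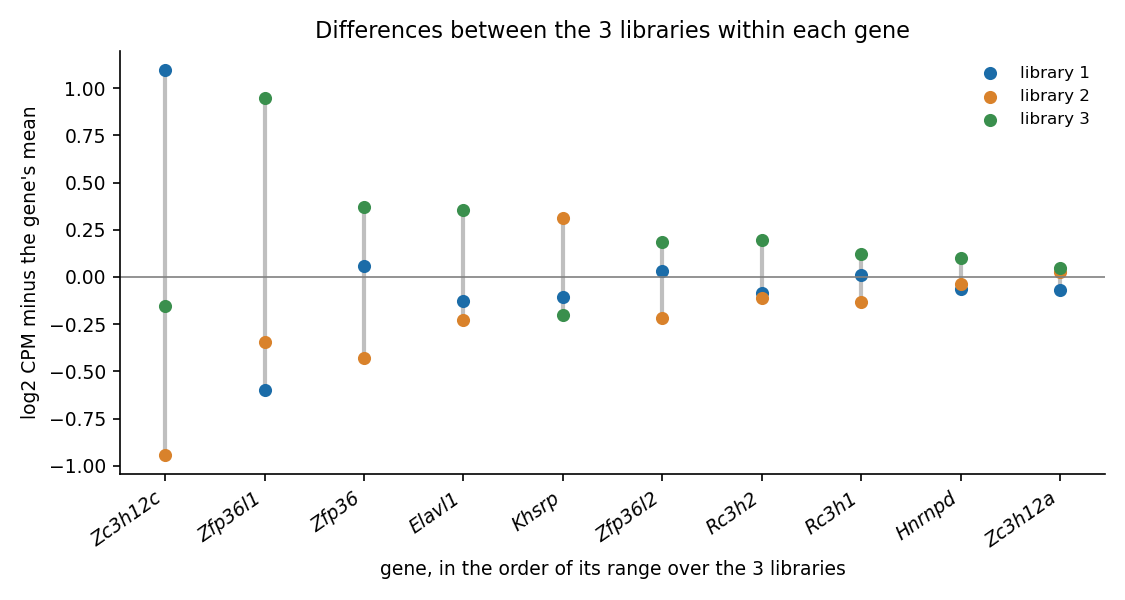
Log2 CPM of each gene in libraries 1 to 3 minus the gene's own mean, with genes in the order of their range; grey bars span the 3 libraries. Zc3h12c (range 2.04, high in library 1) and Zfp36l1 (range 1.55, high in library 3) stand out, and Zc3h12a (range 0.12) varies least.

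The abundance of each gene was divided by the authors over annotated transcript models, as a percent of the gene's abundance. For Zfp36 the single-exon model Zfp36-202 (chromosome 7, 28376791 to 28379255) took 89.0%, 88.9% and 87.5% in libraries 1 to 3, a mean of 88.5% ± 0.83 (SD, n = 3). The spliced model Zfp36-201, with 2 exons, took the remaining 11.5% ± 0.83. The 3 libraries were nearly equal although the TPM of Zfp36 was not. In the second quantification the single-exon model took 78.6% ± 0.13. Of 1579 detected protein-coding genes that have both a single-exon model and a spliced one, the median share of single-exon models was 17.9%, and Zfp36 exceeded 97.9% of these genes, or 94.9% in the second quantification. Describing single-exon models was chosen after seeing the data.

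Zfp36-202 contains the whole intron of Zfp36-201, 680 nt at chromosome 7, 28378494 to 28379173. The splice sites of this intron are shown because Zfp36-202 is the only one of the 2 models that contains them uncut. Intron bases are in capitals and exon bases in lower case, 5′ to 3′ on the minus strand of mm10, with 15 bases on each side.
5′ splice site, chr7:28379159-28379188: tctgccatctacgagGTGAGTACCTGTTAG
3′ splice site, chr7:28378479-28378508: CCCTGTTCCTCTCAGagcctccagtcgatg

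The intron begins with GT and ends with AG, the usual ends of an intron. The models also differ at their start, where the first exon of Zfp36-201 reaches 998 nt further upstream. The share is therefore a division between 2 models and not a direct count of reads in the intron, which was not made. Both models hold the 3 heptamers printed above for Zfp36.

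Single-exon models also took part of Rc3h2 and Elavl1. For Rc3h2 the share of its 3 single-exon models was 30.1%, 34.0% and 38.6% (mean 34.2% ± 4.29). For Elavl1 the single-exon model Elavl1-202, annotated as a retained intron, took 26.2%, 36.0% and 24.1% (mean 28.7% ± 6.33). Both shares lay above the median of 17.9%.

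Transcripts with no protein-coding biotype, mostly retained introns and targets of nonsense-mediated decay (NMD), took very different shares of the 10 genes. None is annotated for Zfp36, Zfp36l1, Zfp36l2 or Zc3h12c. For the other 6 the mean shares of abundance were 72.2% ± 5.17 for Hnrnpd, 62.8% ± 8.03 for Elavl1, 52.4% ± 5.28 for Rc3h2, 44.2% ± 5.67 for Khsrp, 42.7% ± 6.56 for Zc3h12a and 14.6% ± 8.98 for Rc3h1. Over 9017 detected protein-coding genes with at least 1 such transcript the median was 45.0%, with quartiles of 24.6% and 63.9%. Hnrnpd lay above the upper quartile, Rc3h1 below the lower one and the other 4 between them. In the second quantification the share of Hnrnpd was 46.4% ± 0.74, below the median of 54.8% there. Khsrp had 31.6% ± 3.94, below the lower quartile of 33.3%, and Zc3h12a had 61.9% ± 3.19, above the median. Retained intron is a label of the annotation. Models Zc3h12a-202, Rc3h1-203, Rc3h2-207 and Elavl1-203 bear it but contain 0 whole introns of their gene's other models. Elavl1-202 contains 1 and Khsrp-204 contains 2.

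The models of Hnrnpd also differed between the quantifications. Its highest model was the NMD transcript Hnrnpd-208, at 40.1%, 44.3% and 48.5% of abundance in libraries 1 to 3, and at 22.9% ± 4.39 in the second quantification. There the highest was the protein-coding fragment Hnrnpd-210 of 493 nt, at 41.7% ± 3.11, against 11.4% ± 4.75 in the first. Hnrnpd-211, the model with the 3′ UTR of 5429 nt, took 6.06% ± 0.31 of abundance but 36.5% of the gene's expected counts, because abundance divides counts by length. The same step raised short models elsewhere. The retained-intron model Zc3h12a-202, 660 nt long, took 42.7% of the abundance of Zc3h12a but 11.6% of its expected counts. Elavl1-203, a retained-intron model of 613 nt, took 34.1% ± 8.15 of the abundance of Elavl1 but 4.22% of its expected counts. Khsrp-204, a retained-intron model of 757 nt, took 40.5% ± 11.5 of the abundance of Khsrp and 9.99% of its expected counts.

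In the first quantification a protein-coding model had the highest mean share of the 5 genes given next and of Khsrp, Zfp36 and Rc3h1. For Zfp36 this was the single-exon Zfp36-202, which is annotated as protein-coding. Zfp36l1-201 took 92.5% ± 10.2 of Zfp36l1, the only model of Zfp36l2 took all of it, Zc3h12c-202 took 80.8% ± 9.13 of Zc3h12c and Zc3h12a-201 took 57.3% ± 6.56 of Zc3h12a. For Rc3h2 the leading model, Rc3h2-203, took 29.9%, 24.0% and 0.87%, so it was near 0 in library 3, where Rc3h2-201 took 31.9%. The highest model of Rc3h2 without protein-coding biotype was the single-exon Rc3h2-210, at 16.9% ± 2.15. In the second quantification retained-intron models led in both Zc3h12a, with 61.9% ± 3.19 for Zc3h12a-202, and Rc3h2, with 20.9% ± 3.20 for Rc3h2-207. Khsrp-201 took 45.3%, 40.5% and 57.0% of Khsrp, against 50.1%, 43.6% and 27.7% for the retained-intron Khsrp-204, so Khsrp-201 led in library 3 alone.

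For Rc3h1, Elavl1 and Zfp36l1 the annotated models differ in whether they hold the heptamer. Rc3h1-202, with a 3′ UTR of 7181 nt and 2 heptamers, took 48.6%, 37.0% and 55.2% of abundance in libraries 1 to 3. Rc3h1-201, with a 3′ UTR of 20 nt and 0 heptamers, took 42.3%, 53.2% and 19.9%, so the 2 models changed places in library 2. In the second quantification Rc3h1-201 took 57.3%, 64.1% and 35.5%, against 32.8%, 24.4% and 42.8% for Rc3h1-202, so the model without heptamers led in libraries 1 and 2. The retained-intron model Rc3h1-203 took 14.6% ± 8.98. Elavl1-201, with the 8 heptamers, took 20.6%, 34.8% and 43.8% of Elavl1, against 9.71%, 0.39% and 2.20% for Elavl1-204, whose 3′ UTR of 1257 nt holds 0. In the second quantification Elavl1-204 took 20.1% ± 3.23 and Elavl1-201 25.6% ± 11.4. In the first quantification Zfp36l1-204, whose 3′ UTR of 171 nt holds 0 heptamers, took 19.2%, 0% and 3.45% of Zfp36l1. Zfp36l1-201, with 3, took the rest. The shares of Zfp36l1-204, a model of 545 nt, rested on 10.1, 0 and 4.82 expected counts. These were 2.87%, 0% and 0.40% of the gene's expected counts. In the second quantification Zfp36l1-201 took 75.1%, 97.5% and 100%, and Zfp36l1-204 took 11.7%, 0% and 0%. There Zfp36l1-202, whose 3′ UTR of 794 nt holds 0 heptamers, took 13.2%, 2.52% and 0%.

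**Figure D4:**
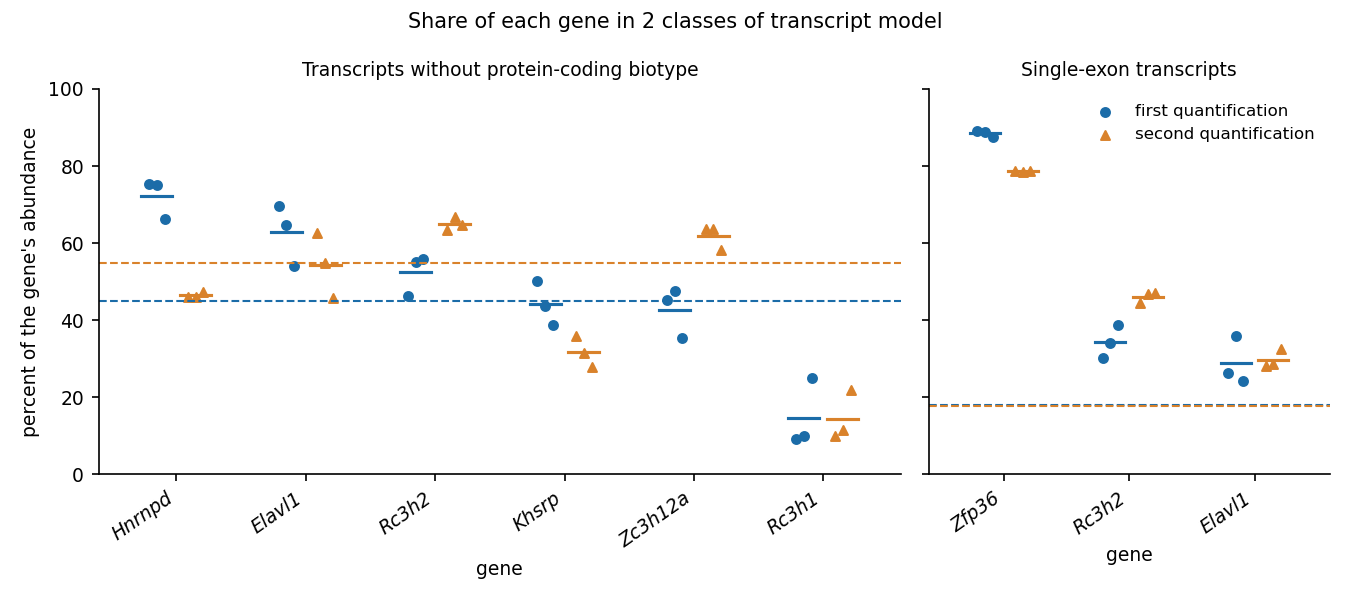
Percent of each gene's abundance in transcripts with no protein-coding biotype (left) and in single-exon transcripts (right); points are libraries 1 to 3 from left to right, short lines are means, and dashed lines are the medians over detected protein-coding genes with such a transcript. Zfp36 lies at 88.5% in single-exon transcripts, and Hnrnpd has the highest share without protein-coding biotype in the first quantification.

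Of the 10 genes 9 overlap at least 1 other annotated gene, and Zc3h12a overlaps none. The largest overlap on the opposite strand was with Gm26669, a long noncoding RNA that covers 4967 nt of the Zfp36l1 gene and shares 1491 nt of exon sequence with it. Zfp36l1 had 351.4, 442.9 and 1195.3 expected counts in libraries 1 to 3, against 183.7, 193.1 and 495.7 for Gm26669, so both were highest in library 3. The strand setting of the counting is not given in the sources used here, and without strand the reads of the 2 genes cannot be told apart. Their part in the range of Zfp36l1 was not tested. The chemokine gene Ccl25 overlaps 204 nt of Elavl1 on the opposite strand. Elavl1 had 479, 472 and 778 expected counts, against 347, 380 and 568 for Ccl25, and both were highest in library 3. On the same strand 3 gene models, Gm37052, Gm37809 and Gm37653, lie inside the span of Rc3h1 with 37 to 238 expected counts in any library.

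The other overlapping genes were below the detection limit. Gm44710, opposite Zfp36, had 8.09, 6.05 and 4.02 expected counts, and Gm17092, opposite Hnrnpd, had 9.14, 4.15 and 7.07. Gm17949, at the end of Khsrp, had 2, 0 and 0. AC132455.1, opposite Zfp36l2, and Snord90, within Rc3h2, had 0 in each library, and Mir6244, opposite Zc3h12c, had 0.34, 0 and 0. The 117 nt of Mir6244 are identical to sequence of Zc3h12c, so without strand their reads cannot be told apart. The part of Mir6244 in the range of Zc3h12c was not tested. A search for near-identical copies, of at least 95% identity over at least 100 nt, found the processed pseudogene Gm8602 for Khsrp, with a match of 608 nt and 0 expected counts. Matches of up to 173 nt with 45 other genes were found for Rc3h2 and of up to 141 nt with 5 for Zfp36, and none for the other 7 outside the genes that overlap them. Counts above 0 were found for 45 of the 45 genes that match Rc3h2 and for 4 of the 5 that match Zfp36. Their effect on the levels of Rc3h2 and Zfp36 was not tested.

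In chromatin RNA, the listed genes of the machinery that these proteins recruit had mean TPM below that of Zfp36. Protein was not measured, and neither was RNA outside the chromatin fraction. The median of the 10 regulators was 16.0 ± 7.59 TPM (SD over 3 libraries), and the medians of the lists of machinery were lower. All 11 genes of the CCR4-NOT deadenylase, which shortens the poly(A) tail, were detected, with a median of 12.2 ± 5.55 TPM. They were led by the scaffold Cnot1 at 45.5 ± 15.9 TPM, the catalytic subunit Cnot6l at 18.3 ± 7.43 and Cnot2 at 15.9 ± 4.14. All 9 genes of decapping and 5′ decay were detected, with a median of 6.01 ± 3.08 TPM, led by the exonuclease Xrn1 at 35.5 ± 9.76, the helicase Ddx6 at 25.2 ± 7.53 and Patl1 at 16.2 ± 2.59. Of 13 genes of the exosome and of other deadenylases, 11 were detected, with a median of 3.22 ± 0.78 TPM. Pan3 was the highest of these at 95.9 ± 27.5 TPM, followed by Exosc10 at 13.2 ± 3.06 and Pan2 at 8.02 ± 2.37, and Exosc3 and Exosc4 were not detected. Of the genes in these 3 lists, a range over 1 in log2 CPM was found in 0 of 11, 0 of 9 and 1 of 11 tested.

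RNA of other genes whose proteins bind cytokine mRNAs was detected for 14 of 14 genes, with a median of 24.6 ± 8.08 TPM. Pcbp2 had 63.9 ± 16.6 TPM, the CCCH antiviral gene Zc3hav1 51.2 ± 17.4 and Tial1 42.5 ± 11.9. The p38 and MK2 kinases phosphorylate tristetraprolin and hold back its activity, and the phosphatase Dusp1 ends p38 signalling. All 9 genes of that list were detected, with a median of 31.6 ± 10.2 TPM. Dusp1 had 198.7, 266.4 and 435.6 TPM, the kinase Mapkapk2 166.9, 92.8 and 127.3 and Mapkapk3 47.7, 42.8 and 73.4. Dusp1 was thus above Zfp36 in each library. Mapkapk2 was the only one of the 9 with a range over 1 in log2 CPM, at 9.02, 7.99 and 7.77 in libraries 1 to 3.

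Chromatin RNA of the genes whose mRNAs these proteins are known to target ranged widely in level. Of 15 genes 14 were detected, with a median of 50.4 ± 31.8 TPM, and Csf2 was not. The cytokine Il1b had 497.2, 450.0 and 595.3 TPM, the chemokine Cxcl2 375.5, 377.7 and 658.0 and the nuclear regulator Nfkbiz 294.5, 259.3 and 609.1. At the other end, Myc had 3.96 ± 0.34 TPM, Il12b 2.06 ± 1.53, Il6 0.51 ± 0.33 and Csf2 0.37 ± 0.27, all below the median detected protein-coding gene at 4.98 TPM. Tnf, whose site is printed above, had 236.4, 165.0 and 420.8 TPM, above Zfp36 in each library. A range over 1 in log2 CPM was found in 2 of the 10 regulators, in 5 of these 14 and in 13.6% of all genes. No gene of any of these lists passed the edgeR test of spread.

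**Figure D5:**
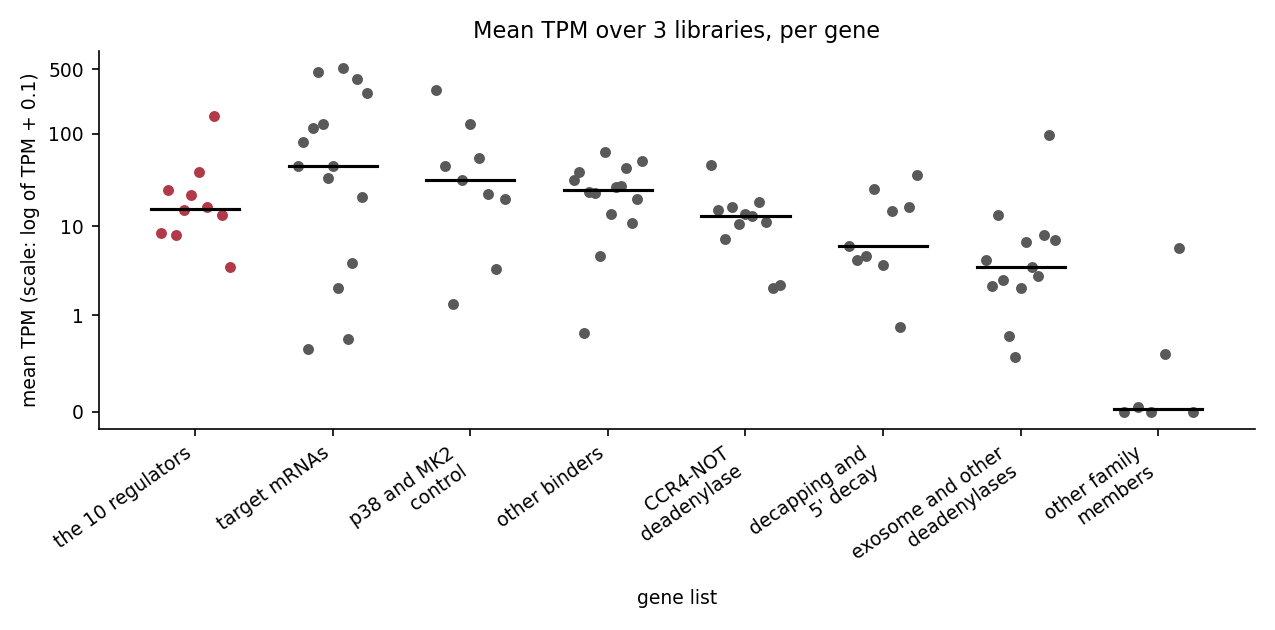
Mean TPM over the 3 libraries of each gene in the 10 regulators (red) and in 7 other lists (grey), on a scale of log(TPM + 0.1); lines are medians over the genes' means. Zfp36 is the highest of the regulators at 155.7 TPM, and the genes of the target mRNAs reach 514.2 TPM with Il1b.

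Expected counts on annotated genes summed to 16301150, 17033725 and 16205704, of which the 10 regulators took 17476, 13258 and 21409, or 0.107%, 0.0778% and 0.132%. The lowest expected count of any of the 10 in a library was 205, for Zfp36l2 in library 2. All 8 macrophage markers were detected, led by Csf1r, Cd14 and Mertk, with summed TPM of 519.4, 605.8 and 817.9. Of 15 markers of other marrow cells 2 were detected, Kit and Col1a1, and the summed TPM of all 15 was 1.70, 1.12 and 3.08. Kit was the highest at 0.49 TPM, followed by Ngp and Ltf at 0.42 and 0.29, which were not detected, and Col1a1 at 0.19, and Cd3e and Cd3g of T cells were at 0 in each library. The other 9, Hbb-bs, S100a9, Siglech, Hba-a1, Cd79a, Camp, Ebf1, Ms4a1 and Cpa3, had mean levels of at most 0.13 TPM.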

How the data were processed

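Chromatin-fraction total RNA was measured in 3 libraries of 1 group. Per the file headers, the authors deposited a gene table and a first transcript table with expected counts, TPM, posterior mean TPM, its lower and upper bounds (a signal on the TPM scale), and the percent of the gene's abundance per transcript. Per the file headers, the estimated counts and TPM of the second transcript table come from another quantification of the reads. Build mm10 and GENCODE M21 were used, per the deposited notes. What tools were run, and whether strand was used, is not given in the sources used here. Since the total of TPM is fixed, a few abundant short RNAs move all other values.

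The members and lists were chosen with earlier results of these data known. All 55536 gene identifiers matched GENCODE M21. Rows that name no annotated gene, with 1.03%, 0.245% and 0.218% of counts, were left out. Named genes were the 10 members, the 3 highest genes by mean TPM and all undetected genes of each other list, each member's highest transcript and its highest one without protein-coding biotype, and all overlapping genes. Further genes and transcripts were named after their values were seen. Likeness of pattern was not computed with 3 libraries. The spread test used edgeR 4.0.16 in R 4.3.3 on rounded expected counts, with TMM scaling, filterByExpr and a threshold of 0.05 across all genes. The depth of the libraries and the lowest member count are given in the report. Alternatives were robust empirical Bayes, no filter on counts, the dispersion outliers and size factors of DESeq2 1.42.0, the second quantification, posterior mean TPM, TPM over genes of at least 300 nt, a minimum of 100 counts, percent of counts, pseudocounts of 1 and 0.01, means, and leaving out each library. Similar transcripts were sought with BLAST 2.17.0. Python 3.11.15, pandas 2.3.3 and matplotlib 3.10.9 were also used.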

Additional observations from a re-analysis of the deposited data

How the results depend on the processing

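The edgeR test of spread called 0 genes with DESeq2 size factors, robust empirical Bayes and the main settings, 117 without a filter on low counts, 7 in the second quantification and 0 to 49 when each library was left out (17 without library 1, 49 without library 2). None of the 10 members was among those called by edgeR, except Zc3h12c without the filter. DESeq2 marked 54 dispersion outliers. All 10 members were detected under each of the 5 alternatives tried. Neighbours in the order that kept 1 order in every library numbered 4, 5 with posterior mean TPM, 4 in the second quantification and over protein-coding transcripts alone, and 6 to 7 when each library was left out, where 2 libraries had to agree. The difference of medians between the 7 family genes and the other 3 was 1.32 over protein-coding transcripts alone, chosen after seeing the data, and 0.72 to 1.10 under the other alternatives. Members with a range over 1 in log2 CPM numbered 1 to 2 when each library was left out and 2 in the second quantification.

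Without library 3 the mean TPM was 100.6 for Zfp36 and 6.12 for Zfp36l1, against 155.7 and 13.3 with it. Member levels stayed within 1 SD for 10 of 10 with posterior mean TPM. They moved for 2 of 10 in the second quantification, for 5 of 10 over protein-coding transcripts alone and for 10 of 10, all upward, with TPM over genes of at least 300 nt. Shares of transcripts without protein-coding biotype moved for 5 of 6 genes in the second quantification and for 6 of 6 as percent of expected counts, all downward. The cause was not tested. No paired analysis was possible because there is 1 group. Detection of the members did not change between count minimums of 10 and 100, and 3 libraries of 1 group limit every comparison.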
